A study of Mus musculus with 4 samples.

Results

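The HoxB cluster is the group of Hox genes that lie side by side on mouse chromosome 11. Its 10 members, Hoxb1 to Hoxb9 and Hoxb13, were chosen by name, and every array probe whose accession maps to one of them was taken, which gave 13 of the 41174 probes. RNA was compared between the posterior part of Jmjd3-/- mouse embryos and that of wild-type embryos at E9.5, with 2 independent RNA samples per genotype, each on its own 1-colour Agilent oligonucleotide array. The gene Jmjd3 (current symbol Kdm6b) codes for a histone demethylase that acts on a repressive mark of histone H3. Embryos of both genotypes came from crosses between Jmjd3+/- mice and their stage was judged from the time since mating and from somite number, and no treatment was given. The labels name no promoter, Cre or deleted exon, and they do not say whether a sample held 1 embryo or several. The p-values therefore reflect only how far these samples spread, which may be technical. Arrays and samples carry the replicate numbers of the labels, which are 1 and 9 for Jmjd3-/- and 3 and 4 for wild-type.

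Hox genes encode homeodomain transcription factors that give cells their position along the head to tail axis. Within a cluster the genes at the 3′ end are switched on first and reach furthest forward, and the genes towards the 5′ end follow later and further back, so that the order on the chromosome matches the order along the body. Before activation the clusters are covered by the repressive Polycomb mark on histone H3, and the removal of that mark accompanies activation. Retinoic acid acts strongly on the 3′ genes of HoxB, while the caudal proteins and the Wnt and FGF signals of the tail bud act on genes further along.

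None of the 9 HoxB genes that could be tested passed the threshold for a difference between the genotypes, an adjusted p under 0.05 in limma over all 13583 genes tested. Across the whole array 5 genes passed, which is 0.0368% of those tested (0.0221% higher and 0.0147% lower in Jmjd3-/-). The values along the cluster were uneven: Hoxb1 was 2.10-fold higher in the mean of the Jmjd3-/- arrays, Hoxb2, Hoxb3, Hoxb8 and Hoxb9 were between 1.24-fold and 1.35-fold higher, Hoxb4 and Hoxb7 lay within 1.07-fold, and Hoxb6 and Hoxb5 were at 0.932 and 0.787 of wild-type. RNA of a whole body region was measured, so more cells that express a gene and more of its RNA per cell cannot be told apart.

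The RefSeq promoter table (GRCm38.p6) holds 3 of the 10 members, and the 250 bases before their start sites are shown because these genes include the largest difference in the cluster (Hoxb1), the smallest (Hoxb4) and one where a single Jmjd3-/- array stood above wild-type (Hoxb8). All are read on the + strand, from 5′ to 3′, at chr11:96365508-96365757 for Hoxb1, chr11:96318017-96318266 for Hoxb4 and chr11:96281655-96281904 for Hoxb8. Capitals mark every match on either strand to 4 motifs. These are TGATNNAT, a joint site of PBX and HOX proteins, TTTATG, bound by CDX proteins, AGGTCA, a motif of retinoid receptors, and TATAAA, the TATA box.
Hoxb1: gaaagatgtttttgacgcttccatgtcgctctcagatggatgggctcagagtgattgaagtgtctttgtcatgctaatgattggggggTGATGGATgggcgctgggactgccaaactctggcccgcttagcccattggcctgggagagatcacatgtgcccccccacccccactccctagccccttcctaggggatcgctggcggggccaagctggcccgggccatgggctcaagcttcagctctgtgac
Hoxb4: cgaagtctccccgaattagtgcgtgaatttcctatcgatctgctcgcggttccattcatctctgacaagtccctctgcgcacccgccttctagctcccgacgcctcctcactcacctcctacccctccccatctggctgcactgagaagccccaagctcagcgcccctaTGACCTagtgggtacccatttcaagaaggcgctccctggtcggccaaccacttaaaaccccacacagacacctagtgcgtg
Hoxb8: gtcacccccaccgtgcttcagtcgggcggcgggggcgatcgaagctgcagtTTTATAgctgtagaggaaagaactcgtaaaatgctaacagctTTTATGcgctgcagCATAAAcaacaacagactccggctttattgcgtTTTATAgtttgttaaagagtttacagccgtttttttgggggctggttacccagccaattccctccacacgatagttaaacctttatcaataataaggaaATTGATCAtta

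The Hoxb1 window held 1 PBX-HOX match, TGATGGAT, which begins 162 bases before the start site. In the mouse, Hoxb1 is known to sustain its own transcription in the hindbrain through joint HOX and PBX sites in its 5′ flank. The Hoxb8 window held 1 such match as well, with 2 CDX and 2 TATA matches, and the Hoxb4 window held only the retinoid receptor motif. Over the same length, 7.68% of the 32851 promoter windows of the table hold the PBX-HOX motif, 10.8% the CDX motif, 14.0% the retinoid receptor motif and 12.4% the TATA motif. A match to short letters is a description and shows no binding. The GC content was 59.2% in the Hoxb1 window, 58.0% in Hoxb4 and 44.4% in Hoxb8.

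On each array 59.8% to 63.0% of probes exceeded background clearly, and the count of saturated spots was 0. The single Kdm6b probe had normalised log2 signals of 0.35 and 0.11 in arrays 1 and 9 of Jmjd3-/- embryos, against 2.15 and 2.23 in arrays 3 and 4 of the wild type, which is −1.96 on the log2 scale (SE 0.12, 2 arrays a genotype, adjusted p = 0.149, limma). The sources used here do not place this probe relative to the deleted part of the gene, so it is no firm check of the labels. Jmjd3-/- replicate 1 stood apart, with 805 and 705 genes over 2-fold away from wild-type arrays 3 and 4, against 354 and 332 for Jmjd3-/- replicate 9. Within a genotype, 431 genes were over 2-fold apart between the Jmjd3-/- arrays and 157 between the wild-type arrays. By this count Jmjd3-/- replicate 9 was nearer to either wild-type array than to Jmjd3-/- replicate 1. The tail bud is present in the sample by its markers, since all 15 listed tail bud and caudal progenitor genes passed the filter on dim probes, while 5 of 14 head, midbrain and hindbrain markers did. On the slide, positions 1 and 4 held Jmjd3-/- and positions 2 and 3 held wild-type, so position and genotype cannot be told apart. All signals below are log2 values relative to the 75th percentile of the same array, which lies at 0. Signals of different probes are not compared with each other.

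**Figure D1:**
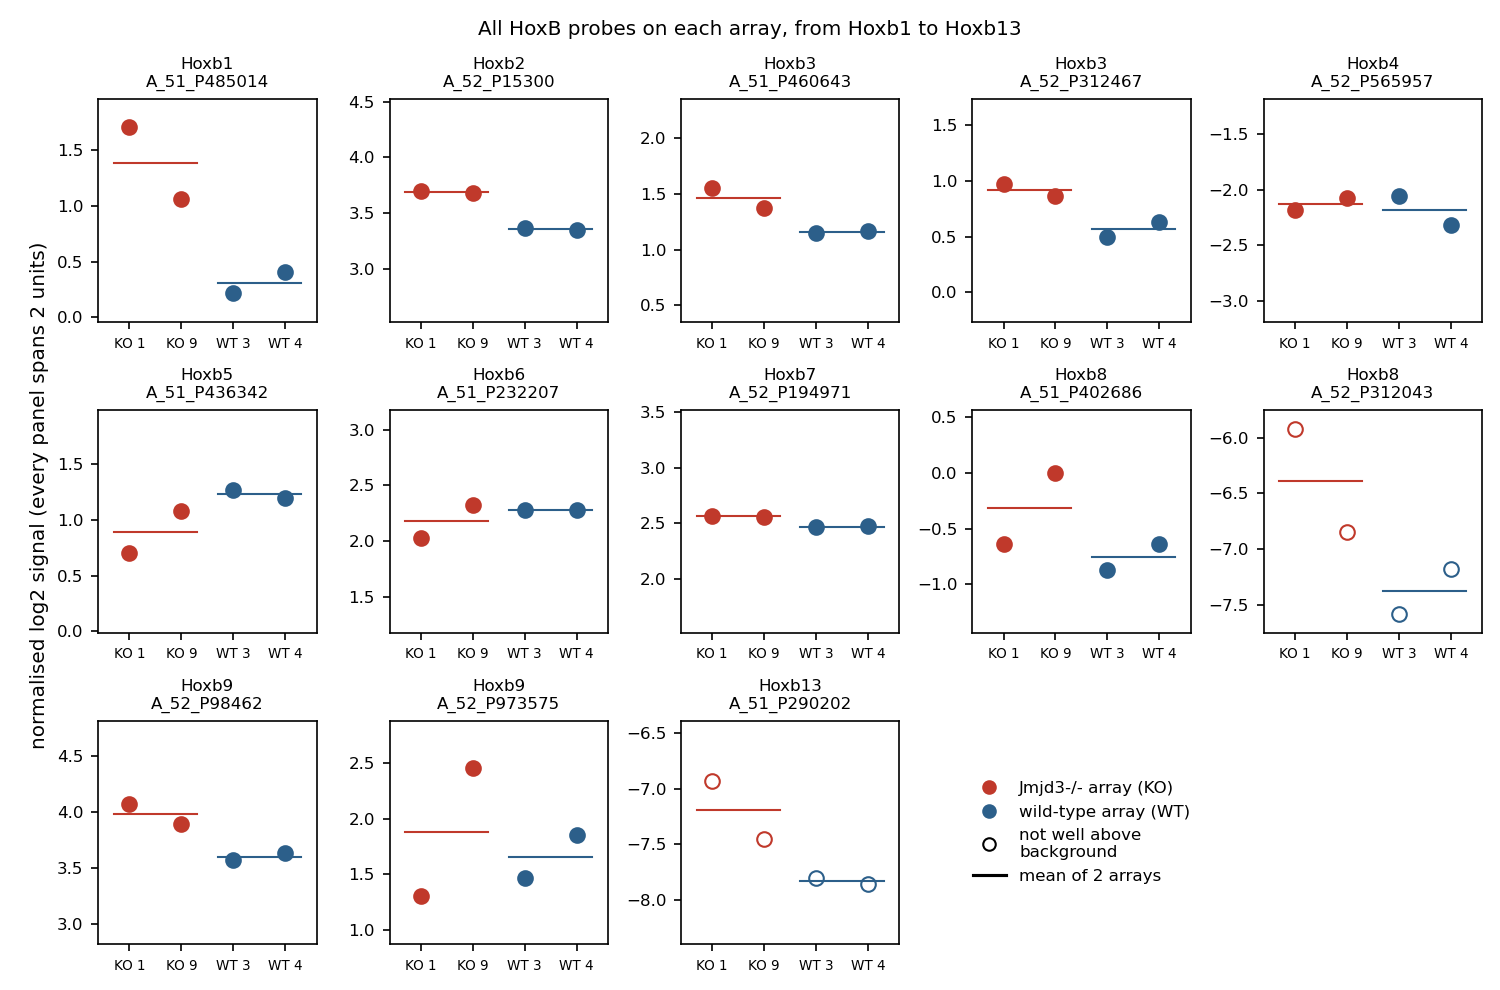
Normalised log2 signal of all 13 HoxB probes on each array, with the mean of the 2 arrays of a genotype as a line and open circles for probes not well above background. Every panel spans 2 log2 units, so the gap between genotypes can be compared by eye across panels; the Hoxb1 arrays lie furthest apart among filled symbols, and the Hoxb4 and Hoxb6 arrays overlap.

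Of the 13 probes, 11 were well above background on all 4 arrays and 2 on none. Those 11 represented 9 genes, and Hoxb3 and Hoxb9 had 2 such probes each. In the plot of all probes by array, the Jmjd3-/- arrays lay above both wild-type arrays for 6 of the 11 probes, below them for 1 and overlapped them for 4. Over all 25055 single probes in the fit, 23.3% lay above and 21.3% below in this sense.

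Hoxb1 is the 3′-most gene of the cluster. It acts early in the primitive streak and later sets the identity of a hindbrain segment, the fourth rhombomere. Its normalised signal was 1.70 and 1.06 in arrays 1 and 9 of Jmjd3-/- embryos, against 0.21 and 0.41 in arrays 3 and 4 of the wild type. The genotypes did not overlap, and the Jmjd3-/- arrays lay further from each other than the wild-type arrays did, by 0.64 against 0.19. The log2 difference was 1.07 (SE 0.25, n = 2 per genotype), with a 95% interval of 0.35 to 1.79 and an adjusted p of 0.349 (limma).

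The Hoxb1 probe was printed as 10 spots on every array, which gives the measuring error of a single gene within an array. The processed intensity of these spots was 1846 to 2054 with a median of 1968 in Jmjd3-/- replicate 1, and 1122 to 1249 with a median of 1217 in Jmjd3-/- replicate 9. In wild-type replicates 3 and 4 it was 643 to 726 with a median of 693, and 772 to 857 with a median of 842. The lowest spot of either Jmjd3-/- array was thus brighter than the highest spot of either wild-type array, before normalisation. The SD of the 10 log2 values was 0.05 and 0.05 in the Jmjd3-/- arrays, against 0.05 and 0.04 in the wild-type arrays, smaller than the gap between the arrays of a genotype. Spots of an array share 1 RNA sample and were averaged before the test, so they add no replicates.

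**Figure D2:**
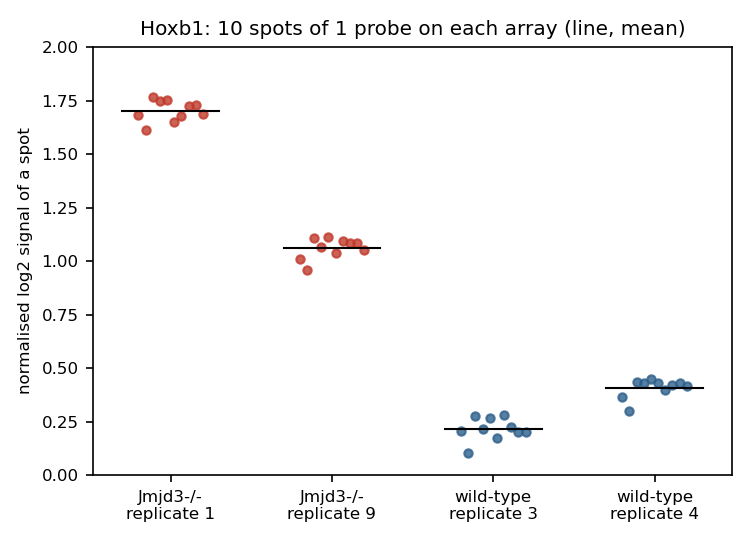
Normalised log2 signal of the 10 Hoxb1 spots on each array, with the array mean as a line. Spots of an array stay within a narrow band (SD 0.04 to 0.05), and the bands of the 4 arrays do not overlap.

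Hoxb2 acts beside Hoxb1 in the hindbrain, where it is switched on by Hoxb1 and by Egr2. Its signal was 3.70 and 3.68 in arrays 1 and 9 of Jmjd3-/- embryos, against 3.36 and 3.35 in arrays 3 and 4 of the wild type. It was the most reproducible of the genes whose genotypes differed by over 0.3, with SDs of 0.01 in Jmjd3-/- and 0.01 in wild-type. The log2 difference was 0.33 (SE 0.07), with a 95% interval of 0.13 to 0.53 and an adjusted p of 0.335 (limma), the smallest in the cluster.

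Hoxb3 patterns the posterior hindbrain and the pharyngeal region. The probe that stands for it, A_51_P460643, had signals of 1.56 and 1.38 in arrays 1 and 9 of Jmjd3-/- embryos, against 1.15 and 1.16 in arrays 3 and 4 of the wild type. The second probe, A_52_P312467, had 0.97 and 0.86 in the Jmjd3-/- arrays, against 0.50 and 0.63 in the wild-type arrays. Both probes showed the genotypes without overlap, with log2 differences of 0.31 (SE 0.10) and, in the fit on single probes, 0.35 (SE 0.10). The adjusted p was 0.414 for the gene (limma).

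Hoxb4, which acts in the neck region and in blood progenitors, had signals of −2.18 and −2.08 in arrays 1 and 9 of Jmjd3-/- embryos, against −2.06 and −2.31 in arrays 3 and 4 of the wild type. The arrays overlapped, and the log2 difference of 0.06 (SE 0.12) had a 95% interval of −0.29 to 0.40. Its sign turned when wild-type replicate 4 was left out (−0.072).

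Hoxb5 helps to place the shoulder and forelimb. Its signal was 0.70 and 1.08 in arrays 1 and 9 of Jmjd3-/- embryos, against 1.27 and 1.20 in arrays 3 and 4 of the wild type. It was the single HoxB gene with both Jmjd3-/- arrays below both wild-type arrays. The log2 difference was −0.35 (SE 0.16), with a 95% interval of −0.79 to 0.10 and an adjusted p of 0.519 (limma). It was −0.16 without Jmjd3-/- replicate 1 and −0.53 without Jmjd3-/- replicate 9.

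Hoxb6, a gene of the thoracic region and lateral plate, had signals of 2.03 and 2.32 in arrays 1 and 9 of Jmjd3-/- embryos, against 2.28 and 2.28 in arrays 3 and 4 of the wild type. Replicate 1 lay below and replicate 9 above the wild-type pair. The log2 difference of −0.10 (SE 0.13) had a 95% interval of −0.46 to 0.26, and it was 0.043 without Jmjd3-/- replicate 1.

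Hoxb7, expressed in the trunk and in the duct of the early kidney, had signals of 2.57 and 2.55 in arrays 1 and 9 of Jmjd3-/- embryos, against 2.46 and 2.47 in arrays 3 and 4 of the wild type. The genotypes did not overlap because each pair was tight, with SDs of 0.01 in both genotypes, but the log2 difference was 0.09 (SE 0.07), with a 95% interval of −0.11 to 0.29. A difference of more than 0.29 in either direction lies outside that interval.

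Hoxb8 acts in the thoracic region and in the blood lineage. Its brighter probe, A_51_P402686, had signals of −0.63 and 0.003 in arrays 1 and 9 of Jmjd3-/- embryos, against −0.87 and −0.63 in arrays 3 and 4 of the wild type. Replicate 1 was level with wild-type replicate 4, so the log2 difference of 0.44 (SE 0.26, 95% interval −0.29 to 1.17) rested on replicate 9. It was 0.12 without Jmjd3-/- replicate 9 and 0.76 without Jmjd3-/- replicate 1. The second probe, A_52_P312043, was not well above background on any array, with processed intensities of 9.93 and 5.02 in the Jmjd3-/- arrays, against 3.13 and 4.34 in the wild-type arrays, and gives no level.

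Hoxb9 takes part in the pattern of the ribs. Its brighter probe, A_52_P98462, had signals of 4.07 and 3.90 in arrays 1 and 9 of Jmjd3-/- embryos, against 3.57 and 3.63 in arrays 3 and 4 of the wild type, without overlap. The log2 difference was 0.38 (SE 0.10), with a 95% interval of 0.11 to 0.66 and an adjusted p of 0.364 (limma). The second probe, A_52_P973575, had 1.30 and 2.45 in the Jmjd3-/- arrays, against 1.47 and 1.86 in the wild-type arrays. On that probe Jmjd3-/- replicate 1 was the lowest array and replicate 9 the highest, 1.15 apart, and the log2 difference in the fit on single probes was 0.22 (SE 0.45). The probes of Hoxb9 therefore had the same sign in the mean and opposite orders of the Jmjd3-/- arrays.

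Hoxb13 is the 5′-most member, lies apart from the rest and is the last to be activated, in the tail. Its probe was not well above background on any array, with processed intensities of 4.93 and 3.29 in arrays 1 and 9 of Jmjd3-/- embryos, against 2.68 and 2.72 in arrays 3 and 4 of the wild type. The lowest signal that counted as well above background was 12.6 and 14.8 on the Jmjd3-/- arrays and 13.1 and 13.3 on the wild-type arrays, so no fold is given.

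Along the cluster, the log2 difference was high at Hoxb1, 0.33 and 0.31 at Hoxb2 and Hoxb3, near 0 at Hoxb4, negative at Hoxb5 and Hoxb6, and positive again from Hoxb7 to Hoxb9. The order of the genes gave a Spearman rho of −0.08 and a Pearson r of −0.34 with the difference over the 9 genes, which share the same 4 arrays. Against the wild-type mean, the Spearman rho was −0.23 for Jmjd3-/- replicate 1 and −0.13 for Jmjd3-/- replicate 9. It was 0.25 for wild-type replicate 4 minus replicate 3. A slope along the cluster was not tested. Jmjd3-/- replicate 1 gave the wider spread, from −0.53 at Hoxb5 to 1.39 at Hoxb1 against the wild-type mean. Jmjd3-/- replicate 9 ran from −0.16 at Hoxb5 to 0.76 at Hoxb8, with Hoxb1 at 0.75. Both Jmjd3-/- arrays had Hoxb5 at the bottom of the cluster. Both had Hoxb1, Hoxb2, Hoxb3 and the brighter Hoxb9 probe above the wild-type mean by 0.22 or more. On the second Hoxb9 probe, Jmjd3-/- replicate 1 lay at −0.36 and replicate 9 at 0.79 against the wild-type mean.

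**Figure D3:**
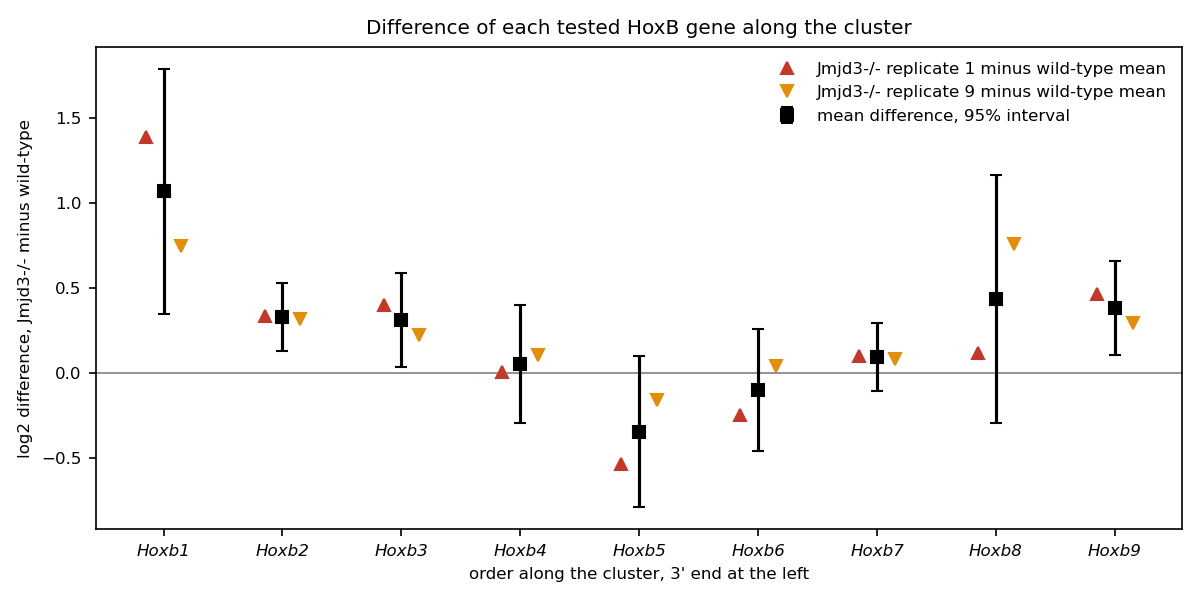
Log2 difference, Jmjd3-/- minus wild-type, of the 9 tested HoxB genes in their order along the cluster, as the mean with its 95% interval (squares) and for each Jmjd3-/- array against the wild-type mean (triangles). Hoxb1 stands highest at 1.07 and Hoxb5 lowest at −0.35, and the intervals of Hoxb4 to Hoxb8 include 0.

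Of the 9 tested members, 7 had a positive log2 difference, against 46.9% of all genes tested, and their median was 0.31, against −0.01 over all genes. Both Jmjd3-/- arrays lay above both wild-type arrays for 5 of the 9, and 23.0% of all genes did so. Both lay below for 1 of the 9, against 23.7% of all genes, so 6 of the 9 did not overlap, against 46.7% of all genes. At an unadjusted p under 0.05 there were 4 members (Hoxb1, Hoxb2, Hoxb3 and Hoxb9), all higher, against 11.1% of all genes in either direction (limma). With an array left out, 1 genotype has a single array, so that count is not given there. These counts describe the members and carry no test of the list. Leaving out Jmjd3-/- replicate 1 gave a median of 0.22, and leaving out Jmjd3-/- replicate 9 gave 0.12.

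The paralogs of a Hox gene, its copies in the other clusters, share much of its sequence and function, and they stand on their own probes. In group 1, Hoxd1 was at 1.04 (SE 0.27) beside 1.07 for Hoxb1, both without overlap. In groups 2 and 3, Hoxa2 was at 0.11 (SE 0.09) and Hoxa3 at −0.04 (SE 0.15), and the second Hoxa3 probe gave 0.48 (SE 0.13) in the fit on single probes. Hoxd3 was at 0.40 (SE 0.12), with 0.81 (SE 0.20) for its second probe in the fit on single probes. That second probe was dim, with a mean of −4.68 in Jmjd3-/- and −5.49 in wild-type. The lowest signals counted as well above background were −5.52 and −5.56 on wild-type arrays 3 and 4, so its difference is limited by background.

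In group 4, Hoxd4 was at 0.37 (SE 0.14) beside 0.06 for Hoxb4, while the probes of Hoxa4 disagreed, at −0.48 (SE 0.24) and, in the fit on single probes, 3.81 (SE 2.97). All 3 tested genes of group 5 were negative, Hoxb5 at −0.35, Hoxa5 at −0.29 (SE 0.29) and Hoxc5 at −0.12 (SE 0.12), and the arrays of Hoxa5 and Hoxc5 overlapped. In group 6, Hoxa6 was at 0.22 (SE 0.23) beside −0.10 for Hoxb6, with overlap in both. In group 7, Hoxa7 was at 0.73 (SE 0.32) beside 0.09 for Hoxb7. In group 8, Hoxb8, Hoxc8 and Hoxd8 lay at 0.44 (SE 0.26), 0.43 (SE 0.23) and 0.33 (SE 0.17). The Jmjd3-/- arrays differed in order, since Hoxb8 was higher in array 9. Hoxc8 (−2.31 and −2.90 in arrays 1 and 9) and Hoxd8 (1.08 and 0.68) were higher in array 1. In group 9, Hoxc9 was at 0.71 (SE 0.18), Hoxa9 at 0.35 (SE 0.26) and Hoxd9 at 0.00 (SE 0.11), with Hoxb9 at 0.38 among them. None of these genes passed the threshold (limma), and the differences between paralogs were not tested.

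**Figure D4:**
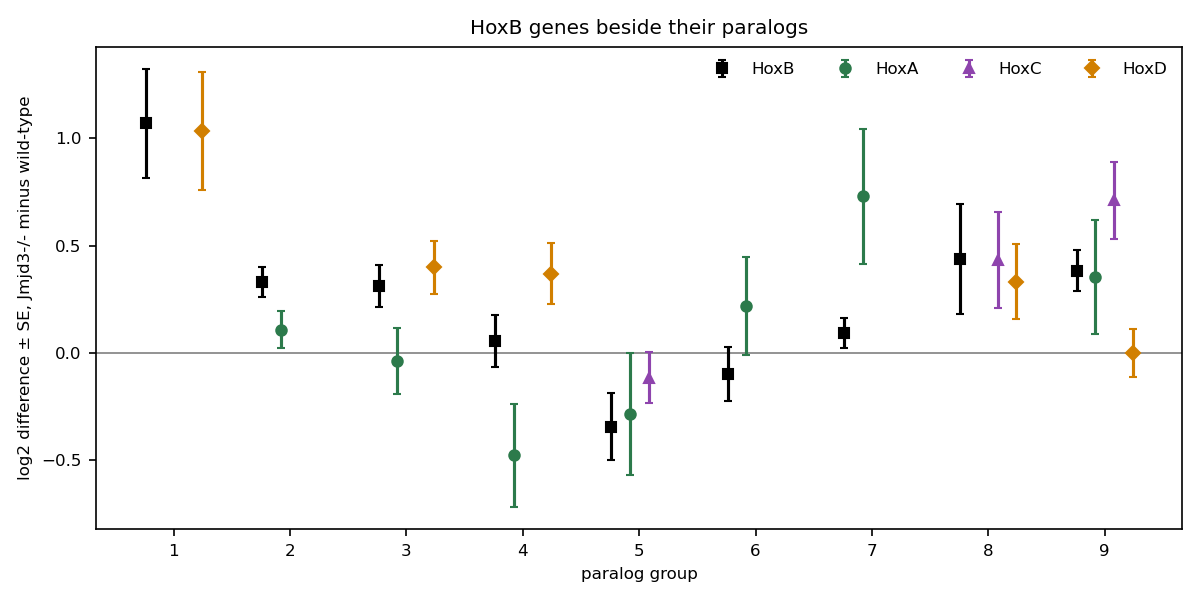
Log2 difference ± SE, Jmjd3-/- minus wild-type, of each tested HoxB gene (squares) and the paralogs reported here in HoxA, HoxC and HoxD, by paralog group. Hoxb1 and Hoxd1 lie at 1.07 and 1.04, the group 5 genes between −0.35 and −0.12, and group 4 has members on both sides of 0.

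Over whole clusters, the median log2 difference was −0.04 for 11 tested HoxA genes, 0.27 for 4 HoxC genes and 0.17 for 8 HoxD genes, beside 0.31 for HoxB. These medians depend on single arrays and on the choice of probes. HoxC was at 0.08 without Jmjd3-/- replicate 1, 0.52 without Jmjd3-/- replicate 9 and −0.0012 with dim probes kept. HoxD was at 0.10 without Jmjd3-/- replicate 1, 0.06 without wild-type replicate 3, 0.26 without wild-type replicate 4 and −0.00075 with dim probes kept. HoxA turned to 0.22 with all probes of a gene averaged and to 0.0033, 0.05 and 0.06 without Jmjd3-/- replicate 1, Jmjd3-/- replicate 9 and wild-type replicate 3. The HoxA, HoxC and HoxD medians include genes of groups 10, 11 or 13, where no HoxB gene was tested, so these medians cover different groups. Over the 29 listed genes of the other clusters, 23 were tested, 9 lay above without overlap and 6 below, against 23.0% and 23.7% of all genes.

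Genes next to the cluster were taken in RefSeq gene order, 10 named protein-coding genes on each side, and 14 of these 20 were tested. Their median log2 difference was −0.13, with 5 positive and 9 negative, but it was 0.010 with 8 of 14 positive without Jmjd3-/- replicate 1 and −0.0037 with 7 of 14 positive without wild-type replicate 4. Skap1, the first such gene beyond Hoxb1 and an adaptor of T cell signalling, had signals of −1.86 and −2.25 in arrays 1 and 9 of Jmjd3-/- embryos, against −2.78 and −2.99 in arrays 3 and 4 of the wild type. The genotypes did not overlap, and the log2 difference was 0.83 (SE 0.17, adjusted p = 0.335, limma).

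The next genes beyond Skap1, namely Snx11, Cbx1 and Nfe2l1, lay at −0.19 (SE 0.30), −0.12 (SE 0.13) and 0.07 (SE 0.07). Further out on that side Sp6, a transcription factor gene of ectoderm, lay at −0.58 (SE 0.21). On the Hoxb13 side Atp5g1, a subunit gene of ATP synthase, was at −0.14 (SE 0.09) and Igf2bp1, an RNA-binding protein gene of the early embryo, at 0.33 (SE 0.19). Kdm6b is also on chromosome 11, and its part in these values as a linked locus was not tested. The microRNA genes Mir10a and Mir196a-1 and the antisense transcripts Hoxb3os and Hoxb5os lie within the cluster. They had 0 probes by the naming used here, so they were not analysed.

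**Figure D5:**
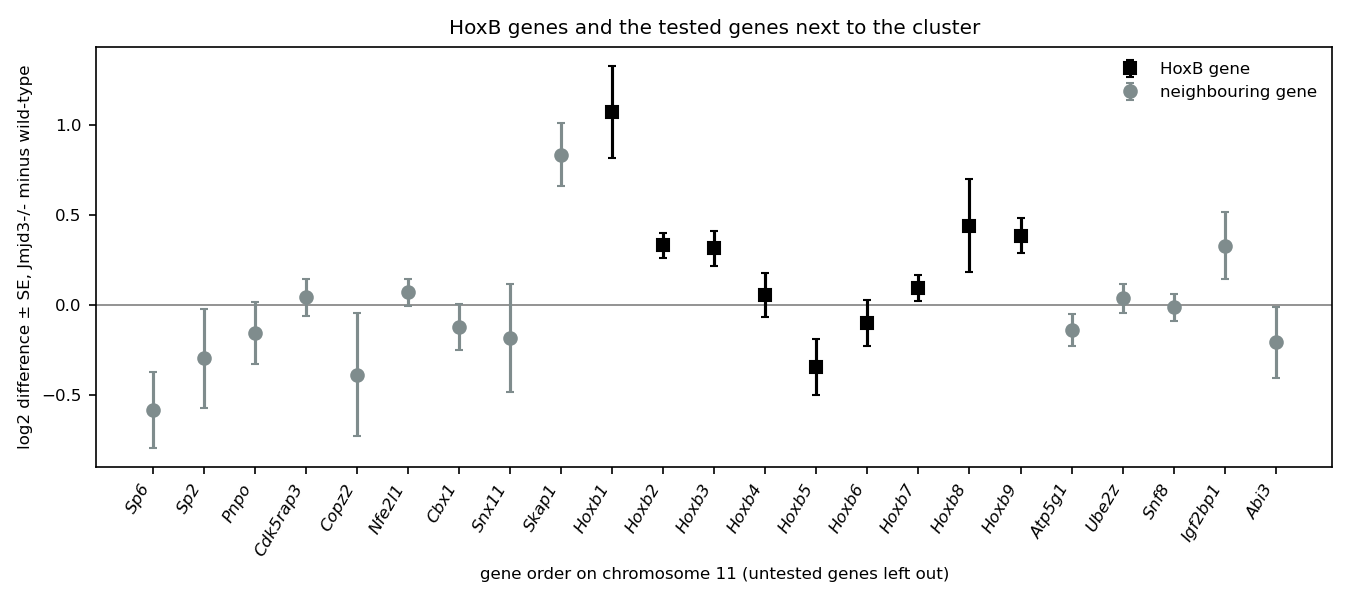
Log2 difference ± SE, Jmjd3-/- minus wild-type, of the 9 tested HoxB genes (squares) and the 14 tested neighbouring genes (circles) in gene order on chromosome 11, Hoxb1 side at the left. Skap1 (0.83) lies beside Hoxb1 (1.07), and the other neighbours lie between −0.58 and 0.33.

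Genes that act upstream of Hox genes in the tail bud had differences above 0. Of 15 listed caudal genes and posterior signals 14 were tested, and the difference was above 0 for all 14 (median 0.72), though none passed the threshold (limma). For 12 of them both Jmjd3-/- arrays lay above both wild-type arrays, against 23.0% of all genes. Without Jmjd3-/- replicate 1 the median was 0.41, with 13 of 14 above 0. Cdx2, a caudal homeobox gene, had signals of 3.03 and 2.48 in arrays 1 and 9 of Jmjd3-/- embryos, against 1.19 and 1.42 in arrays 3 and 4 of the wild type. The difference was 0.79 (SE 0.11) for Cdx1, 1.42 (SE 0.25) for Wnt3a, a signal of the tail bud, and 1.33 (SE 0.24) for the growth factor gene Fgf17.

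The tail bud marker list, which shares several of these genes, was positive in 15 of 15, each without overlap, against 23.0% of all genes. Its median was 1.09, but 1.64 without Jmjd3-/- replicate 9, 0.74 without Jmjd3-/- replicate 1 and 0.86 with normexp. The mean signal over this list was 0.78 and 0.02 in arrays 1 and 9 of Jmjd3-/- embryos, against −0.78 and −0.71 in arrays 3 and 4 of the wild type. The order of the arrays in this list, with Jmjd3-/- replicate 1 highest and wild-type replicate 3 lowest, was that of 4 of the 9 HoxB genes (Hoxb1, Hoxb3, Hoxb7 and Hoxb9). For Hoxb7 it rested on small gaps, with 2.57 and 2.55 in Jmjd3-/- arrays 1 and 9, against 2.46 and 2.47 in wild-type arrays 3 and 4. The second Hoxb9 probe gave another order, with Jmjd3-/- replicate 1 lowest and replicate 9 highest. This order needs both Jmjd3-/- arrays above both wild-type arrays, as in 5 of the 9 HoxB genes and 23.0% of all genes. How many of all genes share the order of the list was not worked out, so the 4 of 9 stands without a comparison. No tail bud marker failed the filter on dim probes. Whether the share of tail bud in the sample has a part in the HoxB values was not tested.

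Genes of the retinoic acid pathway leaned the other way, with 4 of 16 tested genes positive, a median of −0.35, and none past the threshold (limma). There were 2 above and 8 below without overlap, against 23.0% and 23.7% of all genes. Without Jmjd3-/- replicate 1 the median was −0.11, with 7 of 16 positive. The receptor gene Rarg was at 0.46 (SE 0.09) and Cyp26a1, which breaks down retinoic acid in the tail bud, at 0.63 (SE 0.21). Rxrg was at −0.48 (SE 0.12) and Rara at −1.05 (SE 0.41). For Hox cofactors, which bind DNA with Hox proteins, 8 of 9 tested genes were negative, with a median of −0.13, but −0.07 with 3 of 9 positive without Jmjd3-/- replicate 1 and −0.26 without Jmjd3-/- replicate 9. Among these Pknox2 was at 0.36 (SE 0.09), Pknox1 at −0.31 (SE 0.12), Pbx3 at −0.31 (SE 0.13) and Meis1 at −0.41 (SE 0.23).

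Chromatin regulators of Hox genes, the Polycomb and Trithorax subunits among them, had a median of 0.03 over 22 tested genes, with 12 positive and 10 negative. The Polycomb genes Cbx8 and Cbx7 were at −0.30 (SE 0.15) and 0.46 (SE 0.15), and Kmt2d, a methyltransferase gene of active chromatin, at 0.62 (SE 0.19). Among hindbrain regulators of group 1 to 4 Hox genes, Egr2 did not pass the filter on dim probes.

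The marker lists of other cell types held no gene past the threshold (limma), and their counts were not tested. Of 16 tested neural tube and neuron markers, 3 were not well above background on every array, and the other 13 were all negative, with a median of −0.56. The median of all 16 was −0.91, but −0.28 with normexp. Without Jmjd3-/- replicate 1 the median of the 16 was −0.41, with 3 positive. Of 12 somite markers, 2 were not well above background on every array, and the other 10 had 2 positive and a median of −0.28. Lateral plate and limb markers were negative in 8 of 10, with mean signals of −0.17 and 0.15 in Jmjd3-/-, against 0.38 and 0.26 in wild-type. Their median was −0.23, but −0.44 without Jmjd3-/- replicate 9 and −0.10 with normexp. Without Jmjd3-/- replicate 1 it was −0.16, with 3 of 10 positive. Of the 14 head, midbrain and hindbrain markers 1 had no probe, 8 did not pass the filter, and 4 of the 5 tested were negative, with mean signals of −1.89 and −1.12 in Jmjd3-/- against −0.95 and −0.73 in wild-type.

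Blood markers were negative in 6 of 7, but their mean signals overlapped, at 1.88 and 2.32 in Jmjd3-/- against 2.27 and 2.78 in wild-type. Endothelial markers were negative in 5 of 6, and heart markers in 4 of the 6 that were well above background on every array. Gut markers were positive in 5 of 7 (3 of 7 under median scaling or without Jmjd3-/- replicate 1), with a median of 0.01. Intermediate mesoderm markers were positive in 3 of 4, and in 2 of 4 without Jmjd3-/- replicate 1, where their median was −0.03. The part of these cell types in the HoxB values was not tested.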

How the data were processed

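Cy3-labelled cRNA made from total RNA went onto 4 arrays of 1 slide. The authors deposited scanner files with the intensity of each spot, written by Agilent Feature Extraction 10.7.3.1, per the submitters' processing notes. Per the file headers, that processed intensity is background-corrected, with no normalisation across arrays. The authors also deposited a log2 table, whose scale no label states. Its values matched the processed signal normalised as below and centred on the wild-type mean (r = 0.995 to 0.997 across probes, 99.9% of probes within 0.01). Its medians by column were −0.02 and 0.05 in Jmjd3-/- arrays 1 and 9, against 0.02 and −0.02 in arrays 3 and 4 of the wild type.

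Here 1639 control spots were left out, log2 processed signals were averaged per probe, after which each array had its own 75th percentile subtracted. Accessions were named through the RefSeq table of GRCm38.p6 (26690 probes, and 28 by synonym). The files' own build is mm9, so that table served for names and gene order, and coordinates are given for its promoter sequences only. The probe with the highest mean signal stands for a gene, and all probes of the members are shown. Genes entered the test where that probe cleared background on the 2 arrays of either genotype. The comparison used limma 3.58.1 in R 4.3.3 (lmFit, eBayes, 2 residual and 1.79 prior degrees of freedom) with Benjamini-Hochberg adjustment over all 13583 genes. The fit was also run on simulated data with log2 shifts of 2 in either direction. These are larger than any HoxB difference, so that run does not cover differences of the size seen here. Differences are Jmjd3-/- minus wild-type on the log2 scale, and SE is the moderated standard error. The intervals are unadjusted.

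The members, lists and the rule for named genes (all members, and up to 4 genes per list by p) were chosen with earlier results of these data known. A few genes picked by it are not reported here. The normexp alternative used the median spot signal, since the files hold no mean signal. The number of arrays limits the precision.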

Additional observations from a re-analysis of the deposited data

How the results depend on the processing

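No paired analysis was possible because the genotypes share no replicate numbers. There were 13 alternatives, 9 of processing and 4 that leave out an array. Over the 9 of processing, 0 HoxB genes passed the threshold in limma. In these, 4 HoxB genes had an unadjusted p under 0.05, or 5 with no filter on dim probes. Their smallest adjusted p was 0.334 (limma, Hoxb2 without spots marked as outliers). Where an array was left out, 1 genotype had a single array, so only differences are given. The median of the HoxB genes was 0.29 to 0.32 over the processing alternatives and 0.12 to 0.32 over arrays left out, with 0.12 without Jmjd3-/- replicate 9, where the cause was not tested. For 7 of the 9 genes the direction was the same in all alternatives, the exceptions being Hoxb6 without Jmjd3-/- replicate 1 (0.043, in a range of −0.25 to 0.043 over arrays left out) and Hoxb4 without wild-type replicate 4 (−0.072, in a range of −0.072 to 0.18), where the cause was not tested. The number of HoxB genes with a positive difference was 6 to 8. The Hoxb8 difference was 0.71 with the mean of its probes, which includes the probe not well above background, and 0.37 with normexp on the median spot signal. The median of the other clusters was 0.11, but −0.02 with dim probes kept and 0.22 when all probes of a gene were averaged. The count over all genes was 5. It was 0 with quantile normalization, with no filter or with a filter on all 4 arrays, and 0 of 25055 in the fit on single probes. With normexp it was 2, with all probes of a gene averaged 3, and with median scaling or without spots marked as outliers 7. Hoxb13 and the second Hoxb8 probe are limited by signal over background.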
